A study of Mus musculus with 16 samples.

Results

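T cells that carried 2 productive T cell receptor beta chains (TRB) were described in a mouse model of liver cancer. A cell was a member if its barcode was called a cell by the authors and had 2 or more productive TRB contigs of high confidence. This rule found 173 cells among the 5760 cells with a TRB chain (3.003%), in a series of 5908 cells with a productive receptor chain. The other 5587 TRB cells had 1 TRB chain and are called 1-TRB cells. No called cell had more than 2 productive TRB chains.

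C57BL/6 mice received cells of Hepa1-6, a line from a mouse hepatoma, in the left lobe of the liver, and the single cells came from the infiltrate of the liver tumour (HCC in the labels). KO mice were labelled CD4creMatr3fl/fl and CON mice CD4creMatr3WT/WT, so both genotypes carried Cre recombinase under the Cd4 promoter, which acts in the T cell lineage. Matrin 3, the product of Matr3, binds nucleic acids in the nucleus. There were 2 receptor libraries each of KO at day 14, CON at day 14, KO at day 5 and CON at day 5. The 8 RNA libraries of the series were not analysed here, and receptor tables do not measure Matr3. Whether separate mice gave the libraries of a group is not stated in the labels, so each p-value measures no more than the spread among these libraries, and that spread may be technical. A library held 7683 to 31936 unique molecular identifiers (UMIs, which count captured molecules) in productive chains.

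Each T cell assembles its beta chain by joining V, D and J segments of the TRB locus on chromosome 6, and a successful chain on one allele normally stops the other allele from rearranging. This allelic exclusion is strict for TRB and loose for the alpha chain (TRA, chromosome 14), so many T cells carry a second productive TRA and few a second productive TRB. In droplet data a barcode with 2 TRB chains may be 1 cell with both chains, or may hold RNA of more than 1 cell. A second TRB that recurs with the same first TRB and the same TRA in several cells, or chains that are also found apart in other cells, are therefore of interest. The more abundant TRB of a member is called major here and the other minor.

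Members were found in all 8 libraries, at 1.38% to 4.05% of TRB cells. At day 14 they were 3.11% (17 cells) and 2.07% (15 cells) of TRB cells in the KO libraries and 4.05% (55 cells) and 1.38% (11 cells) in the CON libraries. At day 5 they were 3.82% (21 cells) and 3.03% (14 cells) in the KO libraries and 2.56% (15 cells) and 3.40% (25 cells) in the CON libraries. Both the highest and the lowest share belonged to CON at day 14, so the KO values lay within the CON range. The exact 95% intervals were 3.07% to 5.24% for the highest library and 0.690% to 2.45% for the lowest, and they cover counting error only.

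The share did not differ past the threshold of 0.05 between genotypes or days. It averaged 3.01% ± 0.719 in KO and 2.85% ± 1.16 in CON (SD, n = 4 each), a difference of 0.161 percentage points (two-sided exact permutation test, p = 0.833, adjusted p = 1 over 6 comparisons of conditions). Within day 14 the difference was -0.124 points (KO 2.59% ± 0.739, CON 2.72% ± 1.89) and within day 5 it was 0.446 points (KO 3.42% ± 0.557, CON 2.98% ± 0.598), with exact p = 1 and 0.667 and n = 2 each. With 2 against 2 libraries the smallest possible p is 0.333, so these within-day tests could not pass. The day 14 difference rests on single libraries: it was 1.21 when replicate 1 of CON was left out and -1.46 when replicate 2 of CON was. The share averaged 2.65% ± 1.17 at day 14 and 3.20% ± 0.538 at day 5 (difference -0.548, exact p = 0.444), and the change of the KO effect between the days was -0.570 points (exact p = 0.722), which became 0.767 when replicate 1 of CON at day 14 was left out.

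**Figure D1:**
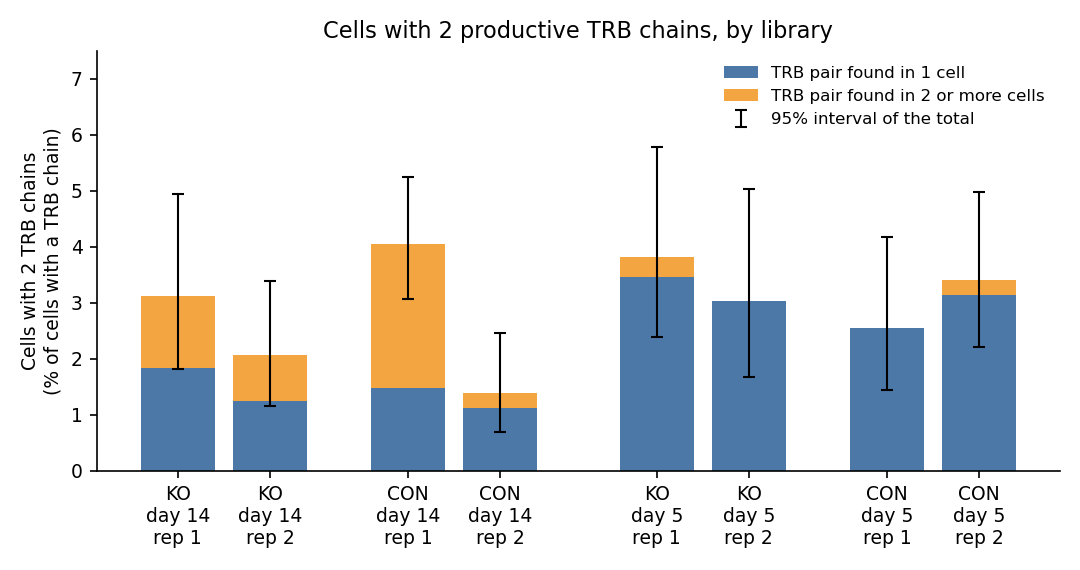
Share of cells with a TRB chain that had 2 productive TRB chains, in each of the 8 libraries (y axis, %), split by whether the TRB pair was found in 1 cell or in 2 or more cells of the library, with the exact 95% interval of the total. The day 14 CON library of replicate 1 reaches 4.05%, of which 2.58 points are cells of recurring pairs, while at day 5 recurring pairs add at most 0.364 points.

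The members fell into a large set whose TRB pair was found in 1 cell and a smaller set whose pair recurred. The 173 members held 128 different TRB pairs, of which 119 were found in 1 cell. The other 9 pairs (7.03%) recurred within a library and held 54 members (31.2%). No pair was found in more than 1 library. In each of the 9 pairs all cells had an identical set of TRA chains, although the pair had been defined without TRA. Day 14 held 7 recurring pairs with 50 of its 98 members (51.0%), and day 5 held 2 recurring pairs with 4 of its 75 members (5.33%).

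The most frequent pair was found in 33 cells of the day 14 CON library of replicate 1, where it made up 60% of the members and 2.43% of the TRB cells. It joined a TRBV13-1 chain and a TRBV29 chain to one TRAV13-1 chain. The next pair was found in 6 cells of the day 14 KO library of replicate 2 and joined TRBV17 and TRBV16 to TRAV10. Another was found in 3 cells of the day 14 KO library of replicate 1 and was made of a pair of TRBV1 chains. CDR3 nucleotide sequences of these pairs are shown because the same unrelated chains stood together in each cell of the pair. Capitals mark the junction, here the bases outside the longest start shared with at least 20% of the distinct CDR3 sequences of that V segment and outside the longest end shared with at least 20% of those of that J segment.
Pair in 33 cells, TRBV13-1 and TRBJ2-5: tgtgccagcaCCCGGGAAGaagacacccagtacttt
Pair in 33 cells, TRBV29 and TRBJ2-3: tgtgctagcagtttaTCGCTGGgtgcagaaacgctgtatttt
Pair in 33 cells, TRAV13-1 and TRAJ32: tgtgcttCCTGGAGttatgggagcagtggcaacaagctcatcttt
Pair in 6 cells, TRBV17 and TRBJ2-7: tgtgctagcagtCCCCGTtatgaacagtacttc
Pair in 6 cells, TRBV16 and TRBJ2-1: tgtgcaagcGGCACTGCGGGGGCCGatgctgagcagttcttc
Pair in 6 cells, TRAV10 and TRAJ22: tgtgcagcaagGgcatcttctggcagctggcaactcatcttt
Pair in 3 cells, TRBV1 and TRBJ1-6: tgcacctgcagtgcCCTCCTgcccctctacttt
Pair in 3 cells, TRBV1 and TRBJ2-7: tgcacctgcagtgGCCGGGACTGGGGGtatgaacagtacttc

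In the cells of the 33-cell pair both TRB chains were abundant and neither was steadily the minor one. The TRBV13-1 chain had a median of 23 UMIs (4 to 85) and the TRBV29 chain a median of 26 UMIs (5 to 56). The TRBV13-1 chain had more UMIs in 19 cells, the TRBV29 chain in 12 cells, and they were equal in 2. The UMIs of the TRBV29 chain were 23.8% to 225% of those of the TRBV13-1 chain, with a median of 86.1%. The TRA chain had a median of 6 UMIs (1 to 22). Outside these 33 cells the TRBV29 chain was found in 1 called cell with 1 TRB and the TRBV13-1 chain in 0 such cells. Among barcodes not called cells, 29 had the TRBV29 chain, 10 the TRBV13-1 chain and 3 of them both. These counts are not limited to high-confidence productive contigs of this library, unlike those of called cells. By the authors' own clonotype label these cells form 1 clonotype of 34 cells, the sixth most frequent of the library (rank 6).

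**Figure D2:**
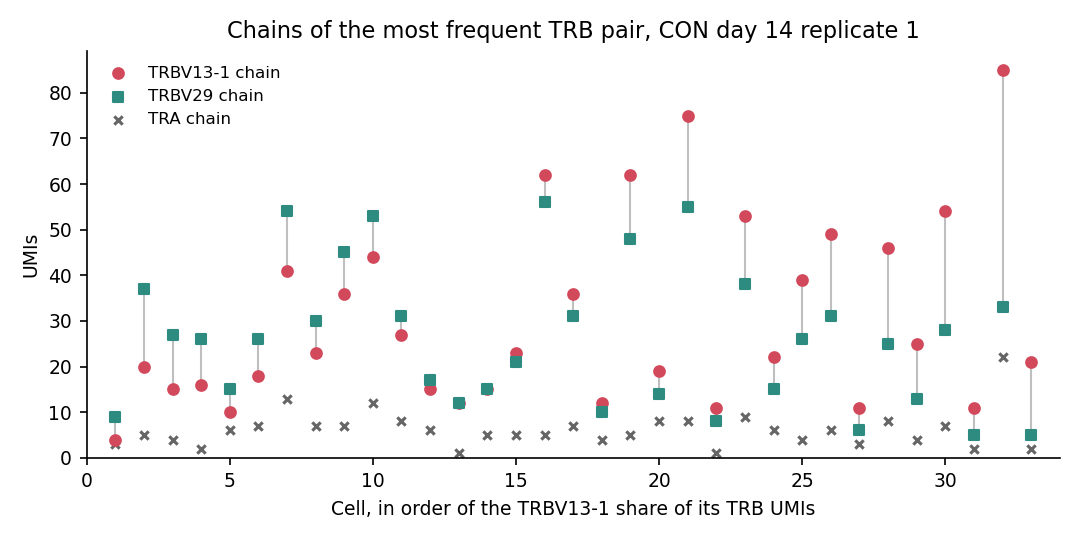
UMIs of the TRBV13-1, TRBV29 and TRA chains (y axis) in each of the 33 cells of the most frequent TRB pair (x axis, in order of the TRBV13-1 share of the cell's TRB UMIs), day 14 CON library of replicate 1. The TRBV29 chain lies above in the 12 cells to the left, the chains are equal in 2 cells, and the TRBV13-1 chain lies above in the 19 cells to the right.

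The smaller recurring pairs held fewer UMIs, and in some of them a single chain led throughout. In the 6-cell pair the TRBV17 chain had 21, 21, 8, 21, 13 and 17 UMIs and the TRBV16 chain 11, 24, 7, 16, 7 and 7 UMIs in the same cells. TRBV17 led in 5 of them and TRBV16 in 1. In the 3-cell pair the TRBV1 chain with TRBJ1-6 had 9, 9 and 5 UMIs and the TRBV1 chain with TRBJ2-7 had 4, 10 and 3. The other 6 pairs were found in 2 cells each. They joined TRBV15 to TRBV5 and TRBV19 to TRBV2 (both in replicate 1 of KO at day 14), TRBV3 to the joint name TRBV12-2+TRBV13-2 used in the deposited tables (replicate 1 of CON at day 14), TRBV19 to TRBV13-1 (replicate 2 of CON at day 14), TRBV12-1 to TRBV29 (replicate 1 of KO at day 5) and TRBV3 to TRBV12-2+TRBV13-2 with other junctions (replicate 2 of CON at day 5). The TRBV12-1 chain had 7 and 13 UMIs in its cells and the TRBV29 chain 6 and 14. Over the 9 pairs, 6 had each chain in the lead in at least 1 cell. TRBV15 led in both cells of its pair and TRBV3 in both cells of the day 5 pair, and TRBV19 led in 1 cell of its pair with TRBV2 and was equal in the other. Of the 18 chains of these pairs, the TRBV29 chain of the 33-cell pair was the one that was also seen in a 1-TRB cell.

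Of the 2-cell pairs, 2 carried the iNKT-type TRA, TRAV11 joined to TRAJ18. Invariant natural killer T (iNKT) cells recognise lipids presented by CD1d through this nearly constant alpha chain, paired with few V beta segments. Since that alpha chain is shared by many iNKT cells of a library, an identical TRA says less in these pairs than in the others. In the day 5 CON library of replicate 2, 60 other cells with 1 TRB carried the same alpha chain, and in the day 14 CON library of replicate 2, 6 did. The TRB chains of the day 5 pair, which joined TRBV3 and TRBV12-2+TRBV13-2, had junctions of 15 and 9 bases, marked as above.
iNKT-type pair, day 5, TRBV3 and TRBJ2-4: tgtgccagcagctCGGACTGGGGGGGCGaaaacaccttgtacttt
iNKT-type pair, day 5, TRBV12-2+TRBV13-2 and TRBJ2-5: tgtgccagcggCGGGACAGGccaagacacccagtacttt
iNKT-type pair, day 5, TRAV11 and TRAJ18: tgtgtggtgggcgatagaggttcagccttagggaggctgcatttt

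A further pair of cells, from replicate 1 of KO at day 14, had both TRB chains (TRBV15 and TRBV5) and both TRA chains in common. The TRBV15 chain had 25 and 26 UMIs and the TRBV5 chain 5 and 19 in these cells, and each cell had 10 TRA UMIs in all. The TRA chains were TRAV16D-DV11 with TRAJ15 and TRAV7N-6 with TRAJ22.

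The members of pairs found in 1 cell and those of recurring pairs were also counted apart, in a comparison added after seeing the data. Here the expanded clones of 1-TRB cells stay in the denominator, and 60.9% of the TRB chains of 1-TRB cells were seen in another such cell at day 14, against 9.07% at day 5. These shares therefore follow clone size as well as the number of members. With each TRB pair and each TRB clonotype counted once, the share of members differed by -0.0340 points between day 14 and day 5 (exact permutation test, p = 1). Over cells, at day 14 members found in 1 cell were 1.83% and 1.24% in KO and 1.47% and 1.13% in CON. At day 5 they were 3.45% and 3.03% in KO and 2.56% and 3.13% in CON. All 4 libraries of day 14 lay below all 4 of day 5. The means were 1.42% ± 0.311 for day 14 and 3.04% ± 0.372 for day 5 (SD, 4 libraries each), a difference of -1.62 points (exact permutation test, p = 0.0556, the smallest this design allows). Leaving out any 1 library gave -1.77 to -1.48 points. The same share differed by 0.318 points between KO and CON (exact permutation p = 0.222). Members of recurring pairs were 1.28% and 0.828% (KO) and 2.58% and 0.251% (CON) of TRB cells at day 14, and 0.364% and 0 (KO) and 0 and 0.272% (CON) at day 5. That difference of 1.08 points had an exact permutation p of 0.111 and was 0.494 without the day 14 CON library of replicate 1, which holds the 33-cell pair.

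Each member had at least 1 productive TRA chain. Of the 173 members, 157 had 1 TRA and 16 had 2, against 4067 and 547 of the 1-TRB cells. In contrast 973 of the 1-TRB cells (17.4%) had no TRA. A count of 0 of 173 members allows a share of up to 1.73%. By library the share of cells with no TRA was 0 in the members of all 8 libraries, against 12.9% to 25.3% of 1-TRB cells, a mean difference of -18.3 ± 5.02 points (SD, n = 8, lower in 8 of 8 libraries, exact sign-flip permutation test, p = 0.0078, the smallest possible, adjusted p = 0.0312 over 8 comparisons with 1-TRB cells). The authors' cell call is part of the rule for members, so this test cannot separate a trait of the cells from the cell call. Among barcodes not called cells, 49 of 168 with a TRB had 2 TRB chains (29.2%), and 41 of these 49 had no TRA. With those barcodes included, an alternative added after seeing the data, the difference was -0.0720 points (exact permutation test, adjusted p = 0.969). The call also ended when any 1 library other than replicate 2 of KO or replicate 1 of CON at day 5 was left out (-19.1 to -17.3 points, exact permutation adjusted p up to 0.0625).

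The share of cells with a second productive TRA did not differ past the threshold between members and 1-TRB cells. Members with 2 TRA were 6 of 17, 0 of 15, 5 of 55 and 0 of 11 in the day 14 libraries (KO replicates 1 and 2, then CON replicates 1 and 2) and 2 of 21, 2 of 14, 0 of 15 and 1 of 25 in the day 5 libraries in the same order. The mean share was 9.02% ± 11.9 of members and 9.10% ± 4.43 of 1-TRB cells (SD, n = 8), a difference of -0.0715 ± 13.9 points (exact sign-flip permutation test, p = 0.984, adjusted p = 1, lower in 5 of 8 libraries). The highest value, 35.3% in the day 14 KO library of replicate 1, includes both cells of the pair that shared 2 TRA chains. The members' TRA chains were also as abundant as those of 1-TRB cells with a TRA to within the spread between libraries. The median TRA UMIs per cell were 10, 3, 5 and 4 in members and 5, 5, 5 and 6 in 1-TRB cells at day 14, and 4, 3, 4 and 6 in members and 3, 4, 4 and 5 in 1-TRB cells at day 5. The log2 ratio was -0.01 ± 0.57 (SD, n = 8, exact sign-flip permutation test, p = 1).

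Cells with 3 or more TRA rearrangements, productive or not, numbered 4 of the members (2.31%) and 6 of the 1-TRB cells (0.107%). A cell has 2 TRA alleles, although an allele can rearrange again. All 4 members were in the day 14 CON library of replicate 1 (7.27% of its members), and all had a TRB pair found in 1 cell. Over the 8 libraries the difference was 0.797 ± 2.59 points (exact sign-flip permutation test, p = 1, higher in 1 of 8), and it was -0.117 without that library.

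Both TRB chains of a member were usually present in similar numbers. The minor chain had 2 to 56 UMIs and the minor-to-major ratio had a median of 60% (quartiles 44.4% and 80%, range 16.7% to 100%). It was at least 50% in 122 members (70.5%), and 9 members had equal UMIs. In 8 members the minor chain had 2 UMIs, the fewest seen, while 66 of the 1-TRB cells (1.18%) had a single TRB UMI. The median ratio by library was 60%, 55%, 66.7% and 46.2% at day 14 and 71.4%, 57.3%, 58.8% and 56.8% at day 5, in the order KO replicates 1 and 2, then CON replicates 1 and 2. The corresponding ratio of the second to the first TRA in 1-TRB cells with 2 TRA, a common state that serves as a yardstick, was 60%, 60%, 60% and 57.1% at day 14 and 58.7%, 61.9%, 66.7% and 60% at day 5. The yardstick is at a lower depth. In 1-TRB cells with a TRA the library medians were 3 to 6 TRA UMIs, and 28 second TRA chains had 1 UMI. With so few UMIs a low TRA ratio is hard to observe, so the ratios are not at a like depth. The mean difference of the TRB ratio from the TRA ratio was -1.53 ± 7.80 points (SD, n = 8, lower in 5 of 8 libraries), which is within the spread between libraries (exact sign-flip permutation test, p = 0.594, adjusted p = 0.95). It was larger in 2 alternatives added after seeing the data. With each TRB pair and clonotype counted once it was -8.49 points (exact sign-flip permutation test, p = 0.0547, adjusted p = 0.109). Without members of recurring pairs it was -5.61 points (same test, adjusted p = 0.175).

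**Figure D3:**
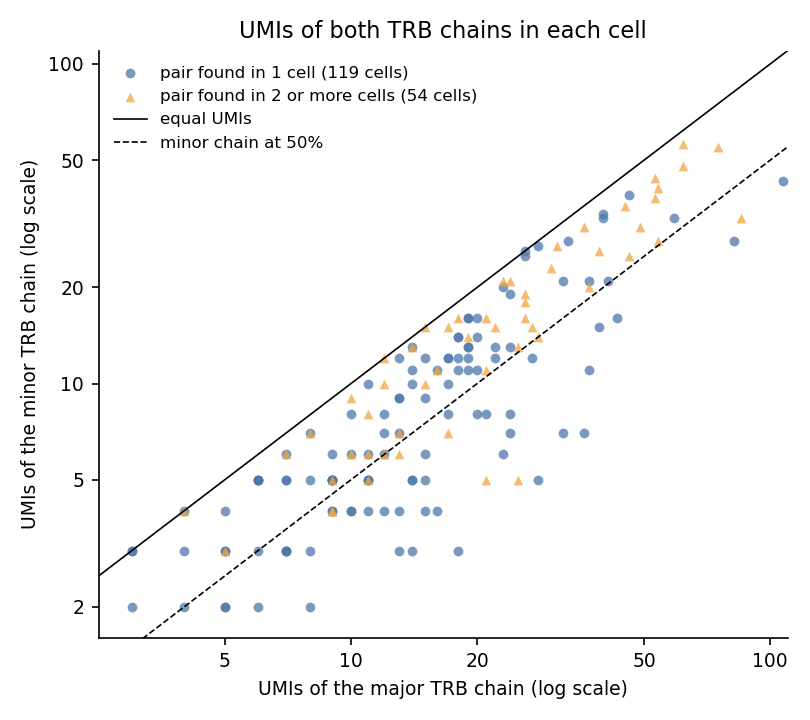
UMIs of the minor TRB chain (y axis) against those of the major TRB chain (x axis) in the 173 members, both on log scales, for pairs found in 1 cell (circles, 119 cells) and recurring pairs (triangles, 54 cells). Members with 2 or 117 UMIs of the major chain fall outside the x axis and are not drawn. With these counted, 122 of 173 members had values between the line of equal UMIs and the dashed line at 50%.

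Members held more receptor UMIs than 1-TRB cells. The median of all productive chains together was 31, 25, 42 and 23 UMIs in members and 16, 13, 15 and 17 in 1-TRB cells at day 14, and 23, 24.5, 32 and 36 in members and 12, 13, 12 and 16 in 1-TRB cells at day 5. The log2 ratio was 1.03 ± 0.33 (SD, n = 8), higher in 8 of 8 libraries. It has no test, because a member has 1 chain more by definition. The major chain alone, which is the larger of a pair by definition, had library medians of 11 to 22 UMIs, against 8 to 12 for the TRB of 1-TRB cells. The minor chain had medians of 5 to 15. Members of recurring pairs had a median of 21 major and 14.5 minor UMIs, a ratio of 69.0% and 5.5 TRA UMIs. Members of pairs found in 1 cell had 14, 7, 57.9% and 4. A second TRA was present in 2 recurring members (3.70%) and 14 of those found in 1 cell (11.8%).

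Whether the chains of members were also found apart, in cells with 1 TRB, was examined next. A chain was called seen if another, 1-TRB cell of the same library had the same V, J and CDR3 nucleotides. Another member does not count, so the clone mates of a recurring pair are left out while those of a 1-TRB cell count, and the comparison is in part fixed by this definition. It is therefore given as a description. At day 14 the minor chain was seen for 0 and 0 (KO) and 38.2% and 18.2% (CON) of members, against 55.4% and 52.1% (KO) and 64.5% and 66.5% (CON) for the TRB of a 1-TRB cell. At day 5 the minor chain was seen for 4.76% and 0 (KO) and 0 and 0 (CON) of members, against 8.32% and 3.35% (KO) and 4.90% and 16.6% (CON) for the TRB of a 1-TRB cell. The mean difference was -26.3 ± 22.7 points (SD, 8 libraries, lower in 8 of 8). The major chain was seen for 11.8% ± 11.9 of members, against 33.96% ± 28.1 of 1-TRB cells, a difference of -22.1 ± 19.9 points (lower in 7 of 8).

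When any other cell of the library counted, members included, an alternative added after seeing the data, neither chain differed past the threshold from the TRB of 1-TRB cells. The minor chain was then seen for 41.2%, 40%, 67.3% and 36.4% of members at day 14 (KO replicates 1 and 2, then CON replicates 1 and 2) and for 14.3%, 0, 0 and 8% at day 5. The TRB of 1-TRB cells was seen for 55.6%, 52.3%, 64.7% and 66.7% at day 14 and for 8.51%, 3.35%, 4.90% and 16.6% at day 5. The difference was -8.18 points for the minor chain (exact sign-flip permutation test, p = 0.0703, adjusted p = 0.1875) and -2.86 points for the major chain (p = 0.461, adjusted p = 0.922). With each TRB pair and each TRB clonotype counted once, it was -7.43 points for the minor chain (exact permutation test, adjusted p = 0.0833) and 0.345 for the major chain (adjusted p = 0.991). The high value of 38.2% in the day 14 CON library of replicate 1 comes from 21 members, and the single 1-TRB cell with the TRBV29 chain of the 33-cell pair accounts for 19 of them. Among members whose pair was found in 1 cell, the minor chain was seen for 4 of 48 (8.33%) and the major chain for 10 of 48 (20.8%) at day 14, against 2026 of 3328 TRB chains of 1-TRB cells (60.9%). At day 5 the numbers were 1 of 71 (1.41%) and 3 of 71 (4.23%), against 205 of 2259 (9.07%).

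**Figure D4:**
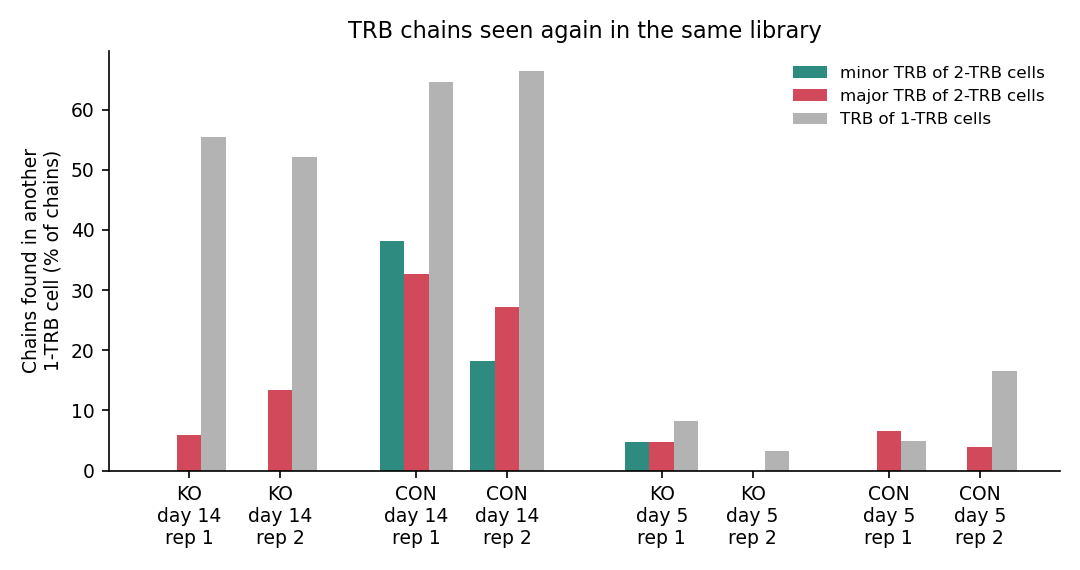
Share of chains that were also found in another cell with 1 TRB of the same library (y axis, %), for the minor TRB of members, the major TRB of members and the TRB of 1-TRB cells, by library. Other members do not count, and at day 14 both bars of the members lie below the bar of 1-TRB cells in all 4 libraries.

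Members in which both chains were found apart were few. Neither chain was seen in a 1-TRB cell for 127 members, 1 chain was seen for 41, and both were seen for 5. All 5 had a TRB pair found in 1 cell, and 4 were from day 14 and 1 from day 5. In a day 14 CON cell of replicate 1 the TRBV2 major chain (7 UMIs) was found in 3 other cells, all with the member's own TRA, and the TRBV2 minor chain (3 UMIs) in 1 other cell, which had a different TRA. A second cell of that library had a TRBV3 major chain (10 UMIs) found in 2 cells with one of its own TRA chains and a TRBV23 minor chain (4 UMIs) found in 2 cells that had no TRA. In the day 14 CON library of replicate 2, a TRBV5 major chain (32 UMIs) stood in 2 cells with the member's TRA and its TRBV12-1 partner (7 UMIs) in 1 cell with another TRA. In another member there the minor chain (TRBV3, 5 UMIs) was the one found with the member's TRA, in 3 cells, and the TRBV23 major chain (9 UMIs) was found in 2 cells with no TRA. The day 5 KO member of replicate 1 had 3 UMIs of each chain and carried the iNKT-type TRA. Its TRBV1 minor chain was found in 5 cells, of which 1 had a TRA, the same as the member's. Its TRBV19 major chain was found in 1 cell, which had no TRA. As in the recurring iNKT-type pairs, an identical TRA says less here. In each of these 5 cells 1 of the chains was seen with an alpha chain of the member. Over the 119 members found in 1 cell, the major chain was seen with the member's own TRA for 9, the minor chain for 2 and both for 0. The 2 include the iNKT-type member of day 5 KO, and the 9 include an iNKT-type member of the day 5 CON library of replicate 2. The share of members with both chains seen was 4.26 points higher at day 14 than at day 5 on average over libraries (exact permutation test, p = 0.667, adjusted p = 1).

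Cells of different libraries hardly overlapped. Of 5887 distinct cell barcodes, 21 were called cells in more than 1 library, and 0 of these were members. The minor chain of 2 members (1.16%) had the same sequence as a chain of another library, against 231 of the 1-TRB cells (4.13%).

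Cells with the iNKT-type TRA were a larger share of members than of 1-TRB cells. They were 40 of the 173 members. Among cells with a TRA the share was 11.8% and 6.67% (KO) and 7.27% and 36.4% (CON) of members, against 3.69% and 5.39% (KO) and 3.26% and 2.77% (CON) of 1-TRB cells, at day 14. At day 5 it was 33.3% and 28.6% (KO) and 60% and 36% (CON) of members, against 29.9% and 31.8% (KO) and 29.5% and 26.2% (CON) of 1-TRB cells. It was higher in members in 7 of 8 libraries, with a mean difference of 10.9 ± 13.6 points (SD, n = 8, exact sign-flip permutation test, p = 0.0234, adjusted p = 0.0469). In the same adjustment the smaller p-values were those of no TRA and of the minor and major chains seen. Those comparisons are tied to the cell call or fixed in part by the definition. The adjusted p of the iNKT-type share therefore leans on them and not on the iNKT-type values alone. The call ended when any 1 library other than the day 5 KO library of replicate 2 was left out (7.70 to 13.0 points, exact permutation adjusted p up to 0.0938), with barcodes not called cells (9.63, adjusted p = 0.0833) and with each pair counted once (10.1, adjusted p = 0.0833). The day 14 CON library of replicate 2 rests on 4 of 11 members. Cells of mucosal-associated invariant T type (TRAV1 joined to TRAJ33) were 0 of the members, which allows up to 1.73%, and 3 of the 1-TRB cells.

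Most iNKT-type members carried at least 1 TRB with a V segment typical of iNKT cells. The list holds TRBV13-1, TRBV13-2, TRBV13-3, TRBV1 and TRBV29, here with the joint name TRBV12-2+TRBV13-2 added. Of the 40 members, 15 had both chains from the list, 23 had 1 and 2 had none. Those with at least 1 were 95%, against 95.5% of iNKT-type 1-TRB cells, which have 1 chain in place of 2 to meet the list. The minor chain was of the list in 29 (72.5%) and the major chain in 24 (60%). Among members of pairs found in 1 cell that lacked the iNKT-type TRA, 24.1% of minor and 34.9% of major chains were of the list, against 32.6% of other 1-TRB cells. A second TRA was present in 3 iNKT-type members (7.5%) and 16 iNKT-type 1-TRB cells (2.59%).

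A further, non-productive TRB rearrangement is the usual trace of the other allele in a 1-TRB cell, while both chains of a member are productive by the rule. The share of cells with such a chain is therefore fixed in part by the rule and is given without a test. It was found in 3 members (1.73%) and 564 of the 1-TRB cells (10.1%), in a comparison added after seeing the data. By library it was 0, 0, 0 and 9.09% of members at day 14 and 4.76%, 7.14%, 0 and 0 at day 5, against 6.34% to 16.5% of 1-TRB cells. The mean difference was -7.51 ± 2.73 points (SD, n = 8).

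The chains of a member were nearly always unrelated rearrangements. The CDR3 sequences of its chains differed by a median of 16 edits (single-base substitutions, insertions or deletions). The closest pair differed by 3 and the next by 8. That closest pair was in the day 14 KO library of replicate 2, with TRBV13-1 and TRBJ1-4 in both chains, 11 UMIs for the major chain and 4 for the minor. The major chain was also found in 2 1-TRB cells and the minor in 0. In the pair below capitals mark the 3 bases of the major chain that the minor chain lacks.
Closest chains, major: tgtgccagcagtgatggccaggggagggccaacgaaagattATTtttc
Closest chains, minor: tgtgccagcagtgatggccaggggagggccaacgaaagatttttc

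Both chains used the same V segment in 7 members (5 pairs), among them the TRBV1 pair shown above, and the same J segment in 10. The TRB locus has 2 J clusters, each followed by its own constant segment, and rearrangement into the second cluster removes the first on that allele. Of the 128 pairs, 56 (43.8%) joined a chain of the first cluster to one of the second, 54 had both chains from the second and 18 both from the first. No TRB contig of a called cell, of 5933, paired a J segment of one cluster with the constant segment of the other.

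Of the V and J segments, TRBV29 rose in the minor chains against the chains of 1-TRB cells. TRBV29 (chromosome 6, 41271403 to 41271881, GRCm38), the Vbeta7 segment of mouse T cells, is used by a part of iNKT cells. It was the V segment of 36 of 173 minor chains (20.8%) and of 204 of 5587 chains of 1-TRB cells (3.65%). The minor chains numbered 0 and 1 (KO) and 21 and 2 (CON) at day 14 and 6 and 2 (KO) and 2 and 2 (CON) at day 5, against 14 and 16 (KO) and 37 and 22 (CON) of 1-TRB cells at day 14 and 21 and 16 (KO) and 35 and 43 (CON) at day 5. The 33-cell pair accounts for 19 of the 21 in the day 14 CON library of replicate 1. The log2 fold change was 2.05 ± 0.55 (SE, edgeR quasi-likelihood test, adjusted p = 0.00692). It was the only call among 32 segments tested (3.12%), while 3 had an unadjusted p under 0.05 and DESeq2 also called 1, TRBV29. The call was lost with TMM factors (1.58, adjusted p = 0.136), which moved the median of all segments by -0.43 on the log2 scale, and when replicate 1 of KO at day 5 was left out (1.87, adjusted p = 0.113).

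TRBV29 was also frequent outside the recurring pairs and in major chains. Among members found in 1 cell it was in 16 minor chains (13.4%) and 15 major chains (12.6%), each in a different cell, so 31 of these 119 members had it. Of those 31 members, 15 had the iNKT-type TRA. The minor chains with TRBV29 found in 1 cell were 5 of 48 at day 14 (10.4%) and 11 of 71 at day 5 (15.5%), against 2.67% and 5.09% of the chains of 1-TRB cells. edgeR also called TRBV29 without iNKT-type cells, without recurring pairs and in the major chains in place of the minor ones. The RefSeq table of this build lists TRBV29 as a pseudogene, while these contigs were called productive.

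No other segment passed in the comparison of all members. TRBJ1-1 (chromosome 6, 41533864 to 41533911) was in 9 minor chains (5.20%) and 835 chains of 1-TRB cells (14.9%), and its log2 fold change was -1.33 ± 0.59 (SE, adjusted p = 0.374 in edgeR). TRBV14 was in 1 minor chain, against 2.74% of 1-TRB cells (log2 fold change -2.27, edgeR adjusted p = 0.374). TRBV16 was in 15 minor chains (8.67%), against 4.22% of 1-TRB cells (log2 fold change 1.03, edgeR adjusted p = 0.509), and 5 of the 15 were in the library of the 6-cell pair. It passed without the day 14 CON library of replicate 1 (1.44, adjusted p = 0.0456). TRBV17 (-1.52), TRBJ1-6 (1.22), TRBJ1-4 (0.52), TRBJ2-3 (0.48) and TRBV31 (-0.65) had adjusted p from 0.628 to 0.729 on the same log2 scale. The value of TRBJ2-3 was -0.02 without the 33-cell pair, whose TRBV29 chain uses it. TRBV31, which lies beyond the J clusters and joins by inversion, was in 3 minor chains. TRBV13-1, in 18 minor chains (10.4%, against 10.8% of 1-TRB cells), was called lower without the members of recurring pairs, where it was in 3 (2.52%, log2 fold change -1.95 ± 0.65, SE, edgeR adjusted p = 0.0452).

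**Figure D5:**
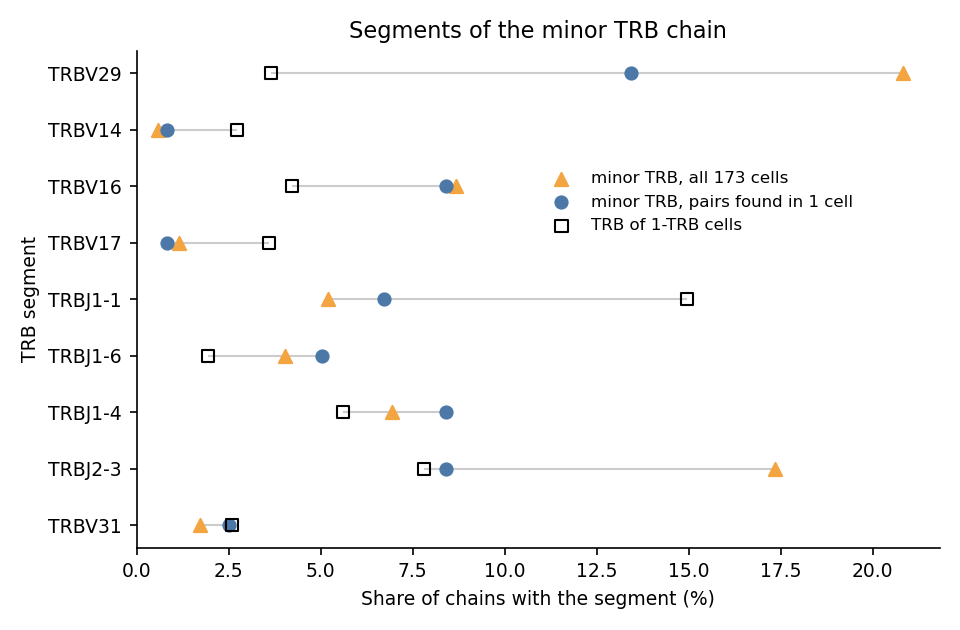
Share of chains that used each named segment (x axis, %), for the minor TRB of all 173 members (triangles), the minor TRB of members whose pair was found in 1 cell (circles) and the TRB of 1-TRB cells (open squares). TRBV29 stands at 20.8% and 13.4% in the minor chains, against 3.65% in 1-TRB cells.

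Of the segment groups, the iNKT V beta list had 1 of 5 tested members called higher (TRBV29) and 0 called lower, and the Vbeta8 list (3 tested) and the J clusters (6 tested each) had 0 called. The median log2 fold change was -0.58 for each of the V lists, 0.40 for the first J cluster and -0.26 for the second, against -0.26 over all 32 segments. The Vbeta8 list (TRBV13-1, TRBV13-2, TRBV13-3) was 15.0% of minor chains and 16.3% of chains of 1-TRB cells. The iNKT V beta list without the joint name was 39.3% of minor chains, or 25.2% for pairs found in 1 cell, against 26.6% of 1-TRB cells. J segments of the second cluster were 67.6% of minor chains, or 58.8% for pairs found in 1 cell, against 64.2%. These group shares are descriptions without a test.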

How the data were processed

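Receptor contig tables of 8 libraries of cells from mouse liver tumours were used. The deposited UMI counts per contig are whole numbers without normalization, per the file headers. The submitters' processing notes name Seurat 4.0.0, R 4.1.2, Cell Ranger 3.1.0, CASAVA 1.8 and build GRCm38 (mm10), without a stated role. The cell call, productivity, confidence and segment names are those of the authors, and other deposited values were not compared.

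Chains were high-confidence productive contigs of called cells, identified by V, J and CDR3 nucleotides within a library. The tables hold no transcriptome, so no doublet caller was run and cells with 2 TRB were kept. Members were compared with 1-TRB cells over the 8 libraries by two-sided exact sign-flip tests (256 sign patterns, smallest p 0.0078) and conditions by two-sided exact permutation of libraries, genotypes within day or days within genotype (36 relabelings, smallest p 0.0556, which cannot pass 0.05). Benjamini-Hochberg adjustment ran over 8 and 6 tests. Segments with 40 or more chains were tested with the quasi-likelihood F test of edgeR 4.0.16 (R 4.3.3, library as a term, offset the number of chains), with DESeq2 1.42.0 as an alternative. Minor chains of a library share its cells. In simulated data of this comparison (20 data sets of 33 segments), 8-fold changes were called for 60 of 60 segments, 3-fold changes for 38 of 60 (63.3%) and unchanged segments for 4 of 533 (0.750%). The simulated counts were drawn independently around the pooled shares of 1-TRB cells and held no clones. These rates therefore do not cover counts raised by expanded clones or recurring pairs. Python 3.11.15 with SciPy 1.17.1 was used. Segment positions came from RefSeq for 33 of 34 segments seen. Sequences are the deposited CDR3 nucleotides. The TRA chain of the 3-cell pair is not reported here.

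The members, segment lists and tests were chosen with earlier results of these data known. Named segments were all that passed or, with fewer than 4, the 4 TRBV and 4 TRBJ of smallest p, and TRBV31. TRBV13-1 was named after its values were seen. Alternatives were minimum UMIs, a minimum ratio of 10%, different CDR3 only, all cells as denominator, thinning to 5 TRB or 3 TRA UMIs, leaving out iNKT-type cells or a library, means for medians, and other normalization and filters.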

Additional observations from a re-analysis of the deposited data

Results flagged for a closer look

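Of 23 sets of library values examined for a value far from the others, 4 were picked out. Chance picks out about 1 in 20 sets of untied values, but in 3 of these 4 the other libraries were all at 0, so that any value above 0 is picked out by construction. Among the day 5 libraries the median minor-to-major UMI ratio of members was 71.4% in the KO library of replicate 1, against 56.8% to 58.8% in the other libraries. The same library was the one of day 5 in which a minor chain was seen in another cell, for 1 of 21 members (4.76%, against 0 in the others). Among the day 14 libraries, members with 3 TRA rearrangements were 7.27% in the CON library of replicate 1 and 0 in the others. Members with a non-productive TRB were 9.09% (1 of 11) in the day 14 CON library of replicate 2 and 0 in the others.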

How the results depend on the processing

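The lower share of minor chains seen in other cells kept its direction in all alternatives run. So did the lower share of cells with a non-productive TRB and the higher total UMIs of members. The lower share of cells with no TRA held in the alternatives run, except with barcodes not called cells. There its difference was -0.0720 points (exact sign-flip permutation test, adjusted p = 0.969), and members were higher in some libraries and lower in others. Over the libraries left out 1 at a time, the minor chain ranged from -29.6 to -22.2 and the no-TRA share from -19.1 to -17.3 points. The non-productive TRB share ranged from -8.13 to -6.93 points and the total UMIs from 0.97 to 1.12 (log2). The major chain ranged from -25.5 to -18.2 and the iNKT-type share from 7.70 to 13.0. Both lost the call in 7 of 8 cases, and the minor chain and the no-TRA share in 6 of 8. With 1 library fewer the smallest p of the test is larger.

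Counting any other cell, counting each pair and clonotype once and adding barcodes not called cells, all added after seeing the data, ended calls, as did the removal of iNKT-type cells. The definition that leaves out other members gave the minor and the major chain an adjusted p of 0.0312 and 0.0417 (exact sign-flip permutation test). Since that definition fixes the comparison in part, these p-values and the calls on them decide nothing about the chains. With any other cell counted, members included, the minor chain was -8.18 and the major chain -2.86. With each TRB pair and clonotype counted once, the no-TRA difference was -20.5, the minor chain -7.43 and the iNKT-type share 10.1 points (exact permutation test, adjusted p from 0.0625 to 0.0833). The major chain then turned to 0.345, 2 TRA to 4.51, the TRA log2 ratio to 0.17 and the day 14 KO difference to 0.129. With barcodes not called cells, no TRA was -0.0720, the iNKT-type share 9.63, 2 TRA 1.42, the TRA log2 ratio 0.050 and the UMI ratio 0.928. Without iNKT-type cells the major chain was -20.7, the TRA log2 ratio 0.028 and the day 14 KO difference 0.0425.

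Values with no call changed sign elsewhere. The 2 TRA difference was 0.477 with 2 or more UMIs a chain, 2.67 without recurring pairs, 1.63 without the 33-cell pair and -3.96 to 2.35 over the libraries left out. The TRA log2 ratio was 0.037 as a mean over cells and -0.15 to 0.10 over the libraries left out. The day 14 KO difference was 0.232 without recurring pairs and 1.07 without the 33-cell pair, and -1.46 to 1.21 over the libraries left out. The interaction was 0.625 without that pair and -1.91 to 0.767 over the libraries left out. The KO difference over both days was -0.508 to 0.8293, that between days -1.22 to 0.121, and 3 TRA rearrangements -0.117 to 0.951. The cause of these changes was not tested.

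TMM factors gave 0 segment calls, leaving out recurring pairs gave 2 (TRBV13-1 and TRBV29), and leaving out a library gave 0 to 2. TRBV29 was 1.58 with TMM and 1.62 to 2.27 over the libraries left out, with adjusted p from 0.00146 to 0.136 over all its alternatives. TRBV17 turned to 0.75 in major chains. TRBJ2-3 turned to -0.025 with each clonotype counted once, to -0.023 without the 33-cell pair, and was -0.10 to 0.63 over the libraries left out.

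Deviations of the replicate 1 libraries of the groups correlated with each other from -0.218 to 0.306 over 34 segments. Replicate 2 libraries and differently numbered libraries were not set beside them. These values therefore cannot settle whether replicate numbers pair the libraries. With the replicate block the KO difference of 0.161 had an exact p of 0.875, those of 0.446 (day 5) and -0.124 (day 14) exact p = 1, and no call changed. With 11 to 55 members a library, 1 cell moves a share by several points.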
